A study of Mus musculus with 6 samples.

Results

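The genes described here encode 3 receptors of the Lgr group, *Lgr4*, *Lgr5* and *Lgr6*, and 2 of their R-spondin ligands, *Rspo1* and *Rspo3*. They were chosen by Ensembl identifier, and each of the 5 had a row among the 25949 probe sets measured. Their expression was profiled on 6 Affymetrix Mouse Exon 1.0 ST arrays, which carry probes along the exons of mouse genes. Each array was hybridized with RNA of mammary buds pooled from E13.5 *Eda-/-* embryos, littermates of a B6CBA background, so that control and treated buds alike lacked the Eda ligand. Control buds (n = 3 pools) were kept in medium without the protein for 4 h, and treated buds (n = 3 pools) were given Fc-Eda, the recombinant Fc-Eda-A1 protein, at 250 ng/mL for as long. The buds of each embryo were split between the conditions, which gave 3 pairs of arrays, and 3 litters were used in all. The sample descriptions give about 20 buds from 5 to 6 embryos per pool, whereas the study's methods give 15 to 20 buds from 4 or 5 embryos. Most of the surrounding mesenchyme had been removed by hand, and the cells that remained in each pool were not examined here, because the identifiers of marker genes, and that of *Eda* itself, could not be paired with names.

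R-spondins are secreted proteins that strengthen Wnt signaling. Bound to an Lgr receptor, an R-spondin draws the membrane ubiquitin ligases Znrf3 and Rnf43 away from the cell surface, and the Frizzled receptors that these ligases would remove can then respond to Wnt. Mammary placodes need Wnt/β-catenin signaling to form, and Eda acts through its receptor Edar and NF-κB. The comparison therefore asks whether the genes of this Wnt-enhancing step differed in level within 4 h of Eda exposure.

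The DNA before the start site is shown for *Lgr4* and *Lgr6*, whose values differed most between the conditions and in opposite directions. RefSeq sequences were at hand for 3 of the 5 genes, *Lgr4*, *Lgr6* and *Rspo1*. The 250 bases upstream of the start, read 5′ to 3′ on the strand of the gene in build GRCm38.p6, are chr2:109917397-109917646 on the plus strand for *Lgr4* and chr1:135105277-135105526 on the minus strand for *Lgr6*.
Lgr4: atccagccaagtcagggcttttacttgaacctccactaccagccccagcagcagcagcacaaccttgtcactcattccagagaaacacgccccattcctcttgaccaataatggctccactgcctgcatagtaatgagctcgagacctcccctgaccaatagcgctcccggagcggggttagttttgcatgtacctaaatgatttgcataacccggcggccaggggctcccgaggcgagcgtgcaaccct
Lgr6: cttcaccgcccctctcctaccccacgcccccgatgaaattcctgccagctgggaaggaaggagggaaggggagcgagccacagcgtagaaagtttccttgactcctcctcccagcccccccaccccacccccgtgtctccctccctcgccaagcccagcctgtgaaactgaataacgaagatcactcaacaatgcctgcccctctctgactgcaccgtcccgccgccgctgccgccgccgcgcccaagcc
Neither stretch held a match, on either strand, to the degenerate κB consensus bound by NF-κB, nor to ACAAAG or TCAAAG, core letters of Tcf/Lef sites, so no base is in capitals. Of the 32841 promoters of the same table, 7.25% held a κB match in these 250 bases, 16.5% held ACAAAG and 13.8% held TCAAAG. In the *Rspo1* promoter a κB match lay across the start site, and the 30 bases at chr4:124986417-124986446 on the plus strand are shown with the matching letters in capitals.
Rspo1: gggtggcgccGGGGGATTCCCtccctcgtg
The capitals hold overlapping κB matches from base -3 to base 8, counted from the start with no base 0. Over the full 300 bases of each promoter in the table, 8.46% held at least 1 κB match. A match is a stretch of letters, and binding was not measured.

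The array of control replicate 1 stood apart from the others, with a median of 4.99 over all probe sets against 4.80 to 4.83 on the other 5 arrays, and an interquartile range of 2.59 against 2.81 to 2.96. Results are therefore also given without pair 1 and under other scalings, after those of all pairs.

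No gene of the group passed the q-value threshold of 0.05 in limma with the pairs as a block, where 0% of all probe sets were called higher and 0% lower (smallest q, 0.10). The values of *Lgr4* were higher in Fc-Eda than in control in each of the 3 pairs, and those of *Lgr6* and *Rspo3* were lower in each. *Rspo1* was higher in each pair as deposited, by small amounts that changed sign in pair 1 after cyclic loess or quantile normalization, and *Lgr5* was higher in 2 of 3. At an unadjusted p under 0.05 in limma, 1 of the 5 genes was higher, where 2.73% of all probe sets were, and 2 were lower, where 3.33% were. The values stand for a tissue pool, in which a change in the number of expressing cells and a change of RNA per cell cannot be told apart. Values below are log2 expression values of the array unless a difference is named. Since the probes of different genes bind differently, they do not order the genes by amount of transcript.

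**Figure D1:**
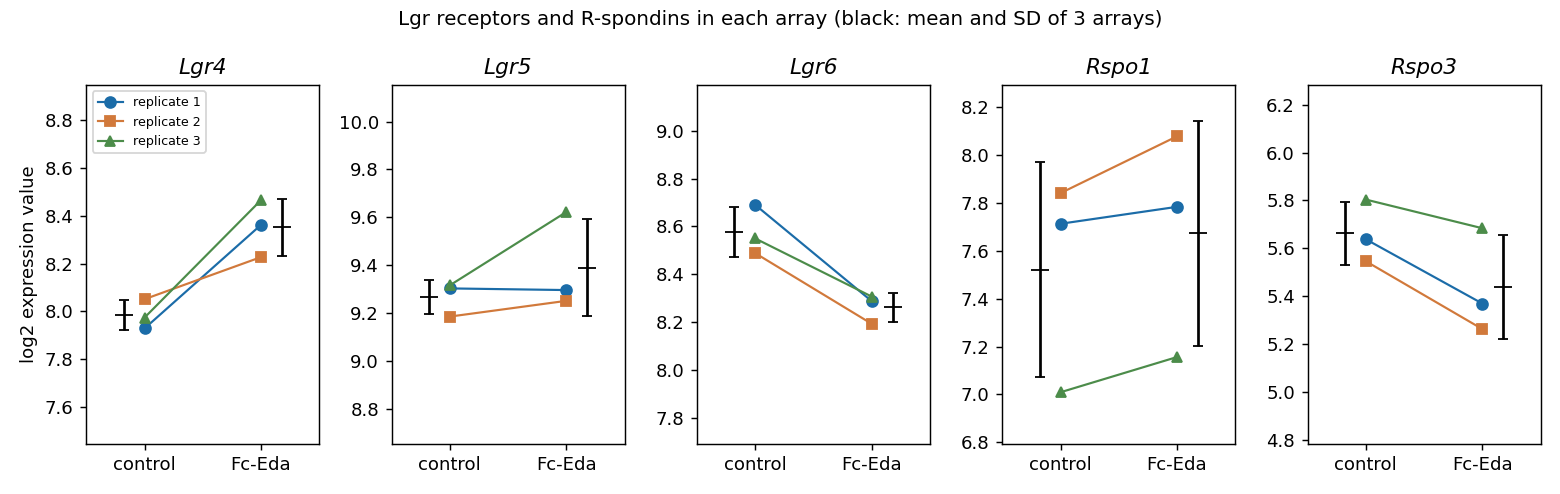
Log2 expression value (vertical axis, the same span of 1.5 in each panel) of each gene in control and Fc-Eda buds, with a line joining the arrays of a replicate and black marks for the mean ± SD of 3 arrays. The Fc-Eda points of *Lgr4* all lie above its control points and those of *Lgr6* all lie below, and replicate 3 of *Rspo1* lies under the other replicates in both conditions.

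*Lgr4* (ENSMUSG00000050199_at), a receptor present in many epithelia, was at 7.93, 8.05 and 7.97 in control replicates 1, 2 and 3. After Fc-Eda treatment the *Lgr4* values were 8.36, 8.23 and 8.46. The lowest treated array thus lay above the highest control array, by 0.18, and the groups did not overlap. Among all probe sets, 3.98% were higher in Fc-Eda without overlap. The means were 7.98 ± 0.06 (SD, n = 3) in control and 8.35 ± 0.12 in Fc-Eda. The *Lgr4* difference was 0.43, 0.18 and 0.49 in the 3 pairs, with a mean of 0.37 (SE 0.10, limma q = 0.549). On the linear scale this mean is 1.29-fold, with a 95% interval of 1.08 to 1.53 that takes no account of the number of probe sets tested. Pair 2 gave the smallest of the differences. The standard deviation of the *Lgr4* pair differences was 0.17, while the median over the brightest 10 percent of probe sets, to which *Lgr4* belongs, was 0.10. A mean difference above that of *Lgr4* was found in 1.5% of all probe sets.

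IBMT and Cyber-T, variance-moderating tests that the study's methods name beside limma, were run here in re-coded versions, whose calls can differ from those of the original programs. In these versions *Lgr4* lay outside the threshold as well. IBMT, in which the expected variance follows the level, gave q = 0.160, and a paired Cyber-T type test, which borrows the variance of probe sets of like level, gave q = 0.0655. IBMT called 0.339% of all probe sets higher and 0.0231% lower, and the Cyber-T type test 0.624% and 0.119%, and 0 of the 5 genes was among them. For *Lgr6* these tests gave q = 0.123 and q = 0.0823.

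*Lgr6* (ENSMUSG00000042793_at), a receptor known from stem cells of the skin and hair follicle, stood at 8.69, 8.49 and 8.55 in control replicates 1, 2 and 3. In the treated buds the *Lgr6* values were 8.29, 8.19 and 8.31. All treated arrays lay below all control arrays, with a gap of 0.18, where 5.11% of all probe sets were lower in Fc-Eda without overlap. The control mean was 8.58 ± 0.10 (SD, n = 3) and the treated mean 8.26 ± 0.06. Pair by pair the *Lgr6* difference was -0.40, -0.30 and -0.24. Their mean was -0.31 (SE 0.08, limma q = 0.541), which is 0.805-fold on the linear scale with a 95% interval of 0.694 to 0.933. The standard deviation of the pair differences was 0.08, where the median of the same bright group was 0.10. A mean difference further below 0 than that of *Lgr6* was found in 3.44% of probe sets.

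*Lgr5* (ENSMUSG00000020140_at), a Wnt target gene that marks stem cells of the intestine and hair follicle, gave 9.30, 9.18 and 9.32 in the control replicates. Its Fc-Eda values were 9.30, 9.25 and 9.62. The treated arrays of replicates 1 and 2 lay within the range of the control arrays, and that of replicate 3 lay above it. The means were 9.27 ± 0.07 (SD, n = 3) and 9.39 ± 0.20, so that the groups overlapped. The *Lgr5* difference was -0.01, 0.07 and 0.31 in the pairs and 0.12 on average (SE 0.10, limma q = 0.756). Its 95% interval ran from -0.13 to 0.37, and thus includes both 0 and the mean difference of *Lgr4*. The size rested on single pairs and on the scaling, with an *Lgr5* difference of 0.03 when pair 3 was left out, 0.19 without pair 1 and 0.08 after cyclic loess.

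The differences of the receptors were unequal. Within a pair, the change of *Lgr4* exceeded that of *Lgr6* by 0.84, 0.47 and 0.73, a quantity that a shift of a whole array leaves as it is. After cyclic loess normalization it was 0.83, 0.47 and 0.74. The change of *Lgr5* exceeded that of *Lgr6* by 0.40, 0.36 and 0.55. Between *Lgr4* and *Lgr5* the excess was 0.44, 0.11 and 0.18 in favour of *Lgr4*. These contrasts were formed with the values in view and were not tested, and an exact permutation test over 3 pairs could not give a p under 0.25.

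**Figure D2:**
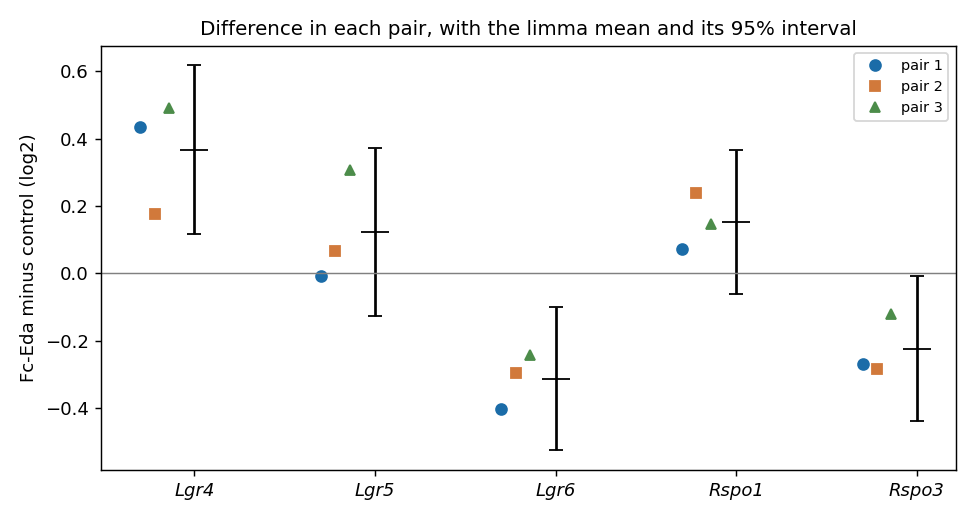
Log2 difference between Fc-Eda and control (vertical axis) in pairs 1 to 3 as coloured points, with black marks for the limma mean and its 95% interval, not adjusted for the number of probe sets. In this fit with all pairs, the interval lies above 0 for *Lgr4* and below 0 for *Lgr6* and *Rspo3*, and includes 0 for *Lgr5* and *Rspo1*. With a pair left out it takes in 0 for *Rspo3* whichever pair that is, for *Lgr4* without pair 3 and for *Lgr6* without pair 2.

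*Rspo1* (ENSMUSG00000028871_at), the R-spondin known for its part in ovary development, differed more between replicates than between conditions. Its control values were 7.71, 7.84 and 7.01 in replicates 1, 2 and 3. Its Fc-Eda values were 7.78, 8.08 and 7.16. Replicate 3 was the low one in both conditions, and the groups overlapped over most of their range. The mean of both arrays of a replicate was 7.75, 7.96 and 7.08, a range of 0.88, and 1.14% of all probe sets had a larger range between replicates. The median range over all probe sets was 0.20. The *Rspo1* difference was 0.07, 0.24 and 0.15 in the pairs, with a mean of 0.15 (SE 0.08, limma q = 0.751) and a 95% interval of -0.06 to 0.37. Without the block the standard error was 0.29.

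*Rspo3* (ENSMUSG00000019880_at), an R-spondin needed for vessel and placenta development, lay at 5.64, 5.55 and 5.80 in control replicates 1, 2 and 3. After treatment its values were 5.37, 5.26 and 5.68. Each treated array was below its own control, while the treated value of replicate 3 was above the control values of replicates 1 and 2, so that the groups overlapped. Across replicates *Rspo3* was highest in replicate 3, in which *Rspo1* was lowest. The *Rspo3* difference was -0.27, -0.28 and -0.12, with a mean of -0.22 (SE 0.08, limma q = 0.694). The linear ratio was 0.856, with a 95% interval of 0.737 to 0.994. The *Rspo3* interval took in no change in the fit with no replicate block, on arrays centred on their medians, by the Cyber-T type test and without pair 1, 2 or 3. That of *Lgr4* did so without pair 3 and that of *Lgr6* without pair 2. IBMT gave *Rspo3* q = 0.532 and *Rspo1* q = 0.577.

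Both ligands were thus on opposite sides of 0, as were *Lgr4* and *Lgr6*. Within pairs the change of *Rspo1* exceeded that of *Rspo3* by 0.34, 0.52 and 0.27, and by 0.18, 0.52 and 0.25 after cyclic loess. This contrast, too, was formed with the values in view and was not tested. Over the group, 2 genes, *Lgr4* and *Rspo1*, were higher in all 3 pairs of the deposited values, where 13.2% of all probe sets were, and 2, *Lgr6* and *Rspo3*, were lower in all 3, where 15.3% were. The median size of the mean difference, without regard to sign, was 0.22 over the 5 genes and 0.09 over all probe sets.

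**Figure D3:**
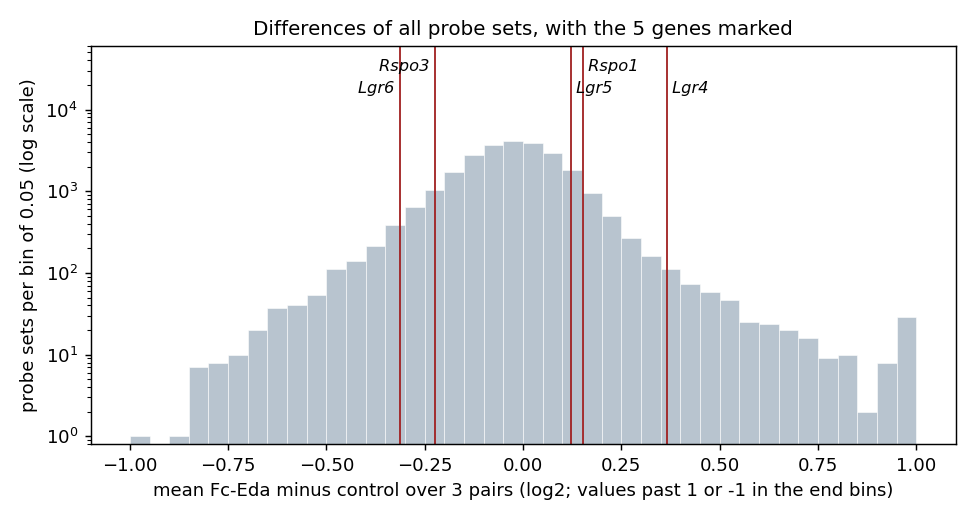
Number of probe sets (vertical axis, log scale) by mean log2 difference between Fc-Eda and control over 3 pairs (horizontal axis, bins of 0.05), with red lines at the 5 genes. *Lgr4*, at 0.37, and *Lgr6*, at -0.31, lie on the flanks of the distribution, with 1.5% and 3.44% of probe sets further out on their side.

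The values of pair 1 depended on how the array of control replicate 1 was scaled. With each array centred on its median, the pair 1 difference was 0.62 in *Lgr4*, -0.22 in *Lgr6* and -0.08 in *Rspo3*. Centring moved the median difference of all probe sets in that pair from -0.07 to 0.11. After cyclic loess, which scales bright and dim probe sets separately, the pair 1 differences of these genes were 0.31, -0.52 and -0.23. *Lgr4* stayed higher, and *Lgr6* and *Rspo3* lower, in all 3 pairs under these scalings and quantile normalization. The sign in pair 1 changed in *Rspo1*, to -0.05 after cyclic loess and -0.04 after quantile normalization, and in *Lgr5*, to 0.18 with centring. On pairs 2 and 3 alone, the mean difference was 0.33 in *Lgr4*, 0.19 in *Lgr5*, -0.27 in *Lgr6*, 0.19 in *Rspo1* and -0.20 in *Rspo3*, and no gene passed the threshold.

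**Figure D4:**
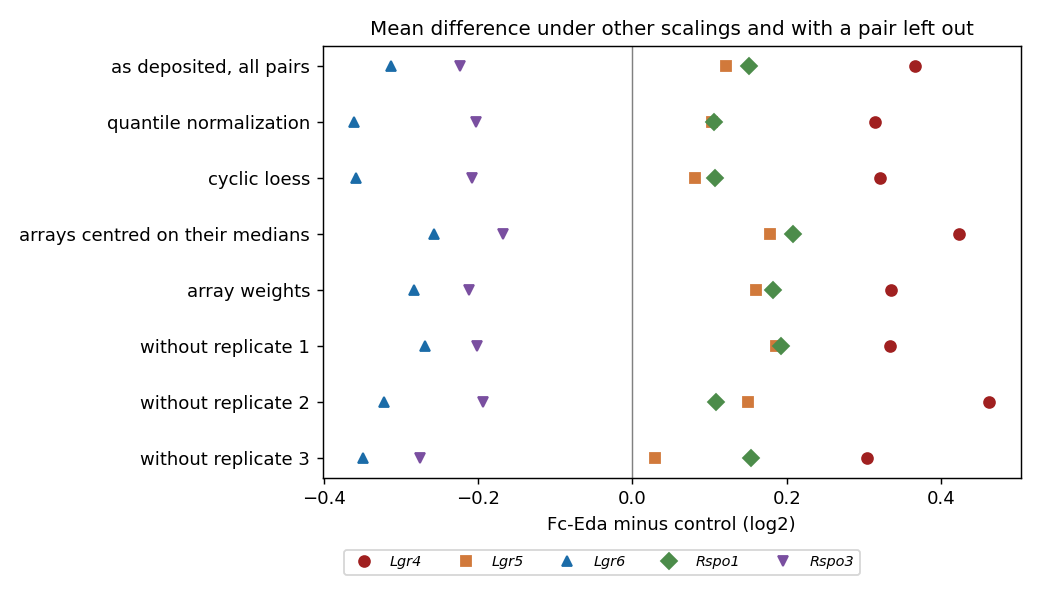
Mean log2 difference between Fc-Eda and control (horizontal axis) of each gene as deposited, under other scalings, with array weights and with 1 pair left out (vertical axis). *Lgr4* ranges from 0.30 to 0.46 and *Lgr6* from -0.36 to -0.26, and every point of a gene lies on the same side of 0.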

How the data were processed

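The deposited log2 values give each probe set 1 number per array and were made with RMA, by the submitters' processing notes. Settings and version are not given in the sources used here, and the quartiles of the arrays differ. All 25949 probe sets were fitted together in R 4.3.3 by limma 3.58.1, in a model of replicate number plus treatment. P-values were turned into q-values over all probe sets by Storey's method, with a threshold of 0.05. The buds of each embryo were divided between a control and a treated pool, which makes the arrays with the same number a pair. Their deviations from the group means correlated with r = 0.079, 0.29 and 0.29 in pairs 1, 2 and 3, and with -0.31 to 0.088 across arrays of different pairs, so that in pair 1 the pairing rests on the design alone. The deviations within a group cancel each other, so the correlations across pairs are not an independent baseline for those within pairs.

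The alternatives were a fit with no replicate block, IBMT, a Cyber-T type test (prior weight 10, window 101), trend and robust moderation, the methods' t-test (paired, as for the arrays, and, added after the data were seen, unpaired), Benjamini-Hochberg adjustment, filters on level, quantile normalization, centring, cyclic loess, array weights and leaving out each pair. IBMT and the Cyber-T type test were re-coded in R rather than run from the original programs. The 3 moderated tests were tested on simulated data. The 5 genes, the lists and the tests were chosen with earlier results of these data known. The genes were taken by Ensembl identifier, and all 5 were named by rule. A symbol could be found in the reference table for 0 of the 25949 identifiers, so the lists of Wnt receptor and target genes, NF-κB response genes and cell type markers, and the genes most alike in pattern, were not analysed here. Promoter sequences come from RefSeq, build GRCm38.p6.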

Additional observations from a re-analysis of the deposited data

How the results depend on the processing

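Each of the 5 differences was computed under 18 alternatives, and all 90 values kept the direction of the value as reported. Most alternatives reuse the same difference, so its direction could not change. In *Lgr4*, *Lgr6*, *Rspo1* and *Rspo3* each deposited pair difference had the same sign. Array weights or leaving out a pair therefore could not change the direction in these genes, and only another scaling could. The signs of the *Lgr5* pairs differed. *Lgr4* ranged from 0.30 to 0.46, *Lgr5* from 0.03 to 0.19, *Lgr6* from -0.36 to -0.26, *Rspo1* from 0.11 to 0.21 and *Rspo3* from -0.28 to -0.17. No gene passed an adjusted threshold under any of them. Without adjustment, *Lgr6*, with a difference of -0.31, passed 0.05 by the methods' t-test in its paired form, where 2.68% of all probe sets were called lower. By the unpaired form, chosen after seeing the data, *Lgr6* passed (2.08% of all probe sets lower), as did *Lgr4*, with 0.37 (1.98% higher). *Rspo3*, under 0.05 before adjustment in limma, passed neither form. With 1 replicate left out, *Lgr4* lay at 0.30 to 0.46, *Lgr5* at 0.03 to 0.19 and *Lgr6* at -0.35 to -0.27. *Rspo1* lay at 0.11 to 0.19 and *Rspo3* at -0.28 to -0.19. All 30 recomputed control levels moved by under 1 SD, which dropping 1 of 3 arrays cannot exceed.

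Limma called 0 of all probe sets, against 708 rises and 864 falls where p was under 0.05 before adjustment. With no replicate block it called 3 higher and 0 lower. IBMT called 88 and 6, the Cyber-T type test 162 and 31, trend and robust moderation 90 and 6, the filter above the median of level 85 and 6, centring 56 and 1, and array weights 11 and 0. Unadjusted, the methods' t-test gave 802 and 696 in its paired form, which Benjamini-Hochberg adjustment left at 0 and 1. The unpaired form, with no replicate block, gave 515 and 539, and 0 and 0 after adjustment. Leaving out 1 replicate gave 0 to 10 higher and 0 to 1 lower. The cause of these shifts was not tested. Which values lie near the background of the arrays is unknown, and precision is limited by there being 6 of them.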
